A study of Homo sapiens with 4 samples.

Results

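Epithelial-mesenchymal transition (EMT) genes were examined in SAS cells, a human cell line from squamous carcinoma of the tongue, in libraries labelled as receiving an siRNA against NAT10 (siNAT10) or a control siRNA (siControl). The 10 genes were chosen by name, as the core EMT transcription factors SNAI1, SNAI2, ZEB1, ZEB2, TWIST1 and TWIST2 together with the E-cadherin gene CDH1, the N-cadherin gene CDH2, the vimentin gene VIM and the fibronectin gene FN1, out of 35767 genes in the table. Each group held 2 libraries, which the labels number as biological replicates 1 and 2 without saying that they came from separate cultures. The p-values thus reflect how far these libraries scatter over all genes, since the test moderates each gene's variance with that of the others. That scatter may be technical. By its title, the study concerns the RNA acetyltransferase NAT10 and how it acts through DDIT4 mRNA on growth of head and neck tumours.

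EMT is the programme by which epithelial cells loosen their junctions and gain motility. SNAIL (SNAI1), SLUG (SNAI2), ZEB1 and ZEB2 are zinc finger repressors that bind E-box sequences, among them those at CDH1, and TWIST1 and TWIST2 are basic helix-loop-helix factors that also bind E-boxes. Loss of E-cadherin with gain of N-cadherin is known as the cadherin switch, and vimentin filaments and a fibronectin matrix are its classical mesenchymal companions. In squamous carcinoma, intermediate states that keep epithelial keratins beside mesenchymal genes are well described.

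The microRNAs of the miR-200 family repress ZEB1 and ZEB2, and ZEB proteins repress the miR-200 genes, a loop that holds cells on one side of the transition. The mature sequences, from RefSeq (GRCh38.p14), are shown because their seeds have matches in both ZEB mRNAs, with the seed (bases 2 to 8) in capitals. The first 3 share one seed and the last 2 share another, which differs in 1 base.
hsa-miR-200b-3p: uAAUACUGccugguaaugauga
hsa-miR-200c-3p: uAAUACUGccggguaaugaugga
hsa-miR-429: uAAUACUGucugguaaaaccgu
hsa-miR-200a-3p: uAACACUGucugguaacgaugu
hsa-miR-141-3p: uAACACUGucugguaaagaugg

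Seed matches were counted in the longest annotated 3′ UTR of each of 19146 protein-coding genes in GENCODE release 29 (GRCh38). The match to the first seed, CAGTATT, was in 16% of them, and the match to the second, CAGTGTT, in 18.3%. ZEB1 had 6 of the first and 3 of the second in 2549 bases, and ZEB2 had 5 and 4 in 5370 bases. Only 6 of the 19146 genes, these included, had at least 9 matches in all. Of the other members SNAI2 had 1 match and FN1 had 2, and SNAI1, TWIST1, TWIST2, VIM, CDH1 and CDH2 had 0. A pair of sites is printed for each ZEB gene, 5′ to 3′ on the mRNA strand as DNA, with the seed match in capitals.
ZEB1, chr10:31527625-31527644, plus strand: tatcttatCAGTATTatcac
ZEB1, chr10:31528038-31528057, plus strand: atcagaatCAGTGTTtgtga
ZEB2, chr2:144389048-144389067, minus strand: ccatacatCAGTATTtttat
ZEB2, chr2:144389232-144389251, minus strand: attttgtaCAGTGTTaaggc
These matches are a description of the annotated sequence. The libraries were made from mRNA and do not measure mature microRNAs. The MIR141 row had 1 and 0 counts in the siNAT10 libraries and 0 and 1 in the siControl libraries.

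**Figure D1:**
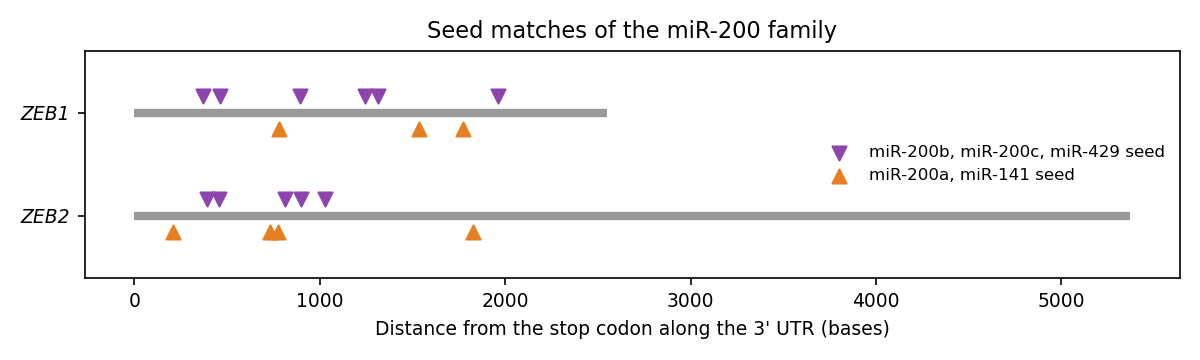
Positions of miR-200 family seed matches along the longest annotated 3′ UTR of ZEB1 (upper bar) and ZEB2 (lower bar), in bases from the stop codon. Both genes carry 9 matches, spread over the ZEB1 3′ UTR and gathered in the part of the ZEB2 3′ UTR nearest to the stop codon.

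Total counts ranged from 30794757 to 36341785 per library. NAT10 itself was at 253 and 248 CPM (counts scaled to a common library size, with TMM factors) in the siNAT10 libraries and 240.4 and 231 CPM in the siControl libraries, which differed by 0.09 ± 0.06 on the log2 scale (SE, n = 2 each, adjusted p = 0.293 by edgeR's quasi-likelihood test). The targeted mRNA therefore goes against the label, and the groups are called libraries labelled siNAT10 and siControl, shortened to siNAT10 and siControl. The genotype label of siNAT10 replicate 2 reads as a knockdown of NAT11. Of 20098 genes tested over the whole table, 40.4% were called at an adjusted p under 0.05, 19.7% higher and 20.7% lower in siNAT10. With libraries scaled by their totals alone the median gene moved to -0.12 on the log2 scale, and 2688 genes were higher and 5604 lower, against 3951 and 4169.

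The epithelial markers of the line were in part present. KRT8 was at 2027 and 1984 CPM in siNAT10 and 1655 and 1679 CPM in siControl. KRT18, KRT17, SFN and EGFR were at 227.89 CPM or more in every library. The list of 13 markers mixed squamous genes with general epithelial ones, among them KRT8, KRT18 and EPCAM. Of these 13 markers 9 were tested, 2 called higher and 4 lower, with a median log2 fold change of -0.58. The list summed to 3775 and 3762 CPM in siNAT10 and 3721 and 3783 CPM in siControl. KRT8 was the largest part of each sum, and the near-equal sums combine a higher KRT8 with lower KRT17 and KRT16. KRT8 and SFN were the higher ones. The keratins KRT16 (-1.51), KRT14 (-1.09) and KRT17 (-0.58) and the adhesion gene EPCAM (-0.99) were lower, KRT17 with 565 ± 30.7 CPM in siNAT10 and 844 ± 31.3 CPM in siControl (SD, n = 2 each). The basal squamous genes KRT5, DSG3 and PKP1 had at most 7 counts in any library, and TP63 had 14 to 36. The fibroblast markers LUM, COL3A1 and PDGFRA had at most 4 counts in any library. Of the 10 fibroblast markers 6 were tested. COL1A1 was called lower, at 745 and 594 counts in siNAT10 and 1031 and 1069 counts in siControl. PDGFRB (0.38) and THY1 (1.80) were called higher, THY1 with 26 and 39 counts in siNAT10 and 6 and 16 counts in siControl. COL1A1, PDGFRB and THY1 are also in the mesenchymal list given below. There COL1A1 is among the genes called lower, and PDGFRB and THY1 are among those called higher. The fibroblast list as a whole summed to 32.9 and 32.5 CPM in siNAT10 and 34.8 and 38.4 CPM in siControl.

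Levels can be compared between genes only per length, and for that TPM was used, counts per kilobase of merged exons, scaled to a common sum. VIM had the highest level of the 10 genes, with 166 and 167 TPM in siNAT10 and 180.3 and 177 TPM in siControl. ZEB1 followed with 49.3 and 44.3 TPM in siNAT10 and 74.2 and 73.5 TPM in siControl, then FN1 and CDH2. CDH1 had the lowest level, at 0.487 and 0.351 TPM in siNAT10 and 0.67 TPM in both siControl libraries. The cells of both groups thus carried vimentin, ZEB1, fibronectin and N-cadherin mRNA with little E-cadherin mRNA. The remaining order by mean was SNAI2, TWIST1, TWIST2, SNAI1 and ZEB2, the same in both groups. Neighbours overlapped for SNAI2 and TWIST1 in siNAT10, and for CDH2 and SNAI2 and for TWIST1 and TWIST2 in siControl. The deposited length merges all exons of a gene (23707 bases for ZEB2, 17315 for FN1), so a gene with many alternative exons has a TPM below that of its main transcript. VIM and ZEB2 had a lower mean in siNAT10 in TPM and a higher one in CPM, and differences between groups are given from CPM.

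Of the 10 members, 5 were called, 3 higher (SNAI1, CDH2 and FN1) and 2 lower (SNAI2 and ZEB1) in siNAT10. All 10 passed the filter on low counts. The share called is near the 40.4% of all genes tested, and the median log2 fold change of the members, 0.03, is near that of all tested genes, -0.0079. The CPM of the groups did not overlap for 7 members, against 69.5% of all tested genes. The members thus moved in both directions, and about as often as other genes did.

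**Figure D2:**
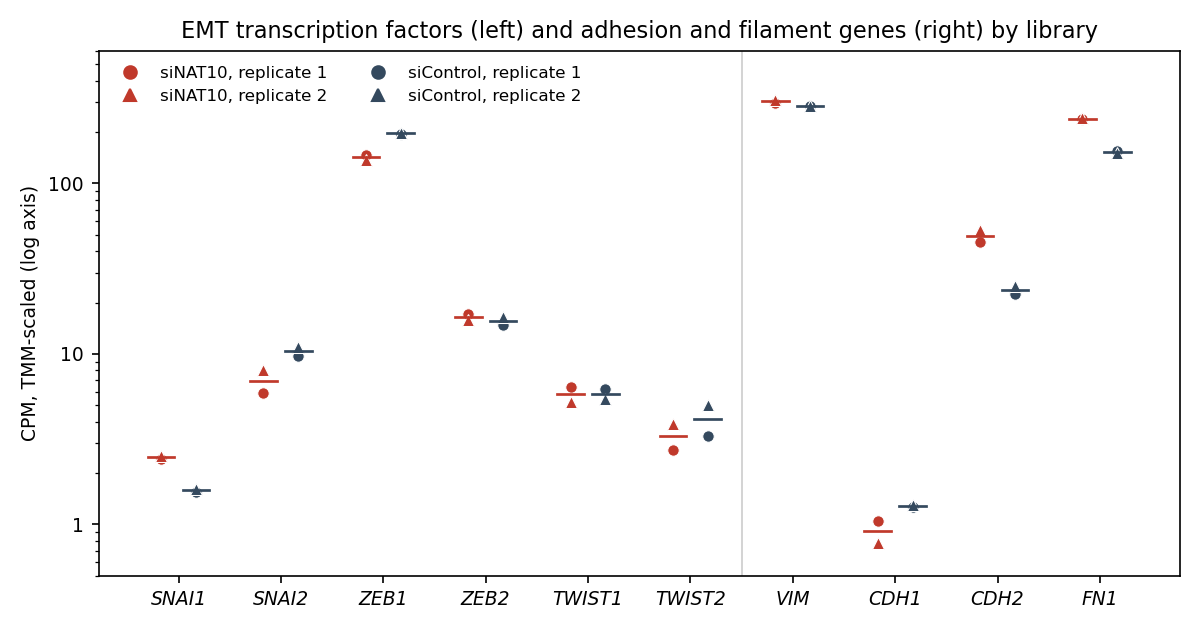
CPM of the 10 genes in each library on a log axis, with siNAT10 in red left of siControl in blue; horizontal lines are group means and marker shapes give the replicate. CDH2, FN1 and SNAI1 lie higher in siNAT10, ZEB1 and SNAI2 lie lower, and CDH1 stays near 1 CPM in all 4 libraries.

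ZEB1 was lower in siNAT10. ZEB1 (chromosome 10, 31318495 to 31529814, GRCh38, plus strand) had 148 and 138 CPM in siNAT10, against 196 and 199 CPM in siControl. Both siNAT10 libraries were below both siControl libraries by more than the spread within either pair. Its mean was 143 ± 7.05 CPM in siNAT10 and 197 ± 2.15 CPM in siControl (SD, n = 2 each), a log2 change of -0.47 ± 0.07 (SE, edgeR adjusted p = 1.35e-05), or 1.38-fold lower. The call held in all 11 alternatives. ZEB1-AS1, an antisense RNA from the opposite strand that shares 366 exon bases with ZEB1, had 1.88 and 2.30 CPM in siNAT10 and 3.55 and 3.99 CPM in siControl, and was called lower too (-0.85 ± 0.21, edgeR adjusted p = 2.99e-03). The strand setting of the counting is not given in the sources used here, so reads in the shared bases cannot be assigned to either gene.

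ZEB2, the closest relative of ZEB1, was not called. ZEB2 (chromosome 2, 144384081 to 144524583, minus strand) had 17.1 and 15.8 CPM in siNAT10, against 14.8 and 16.5 CPM in siControl, and the groups overlapped. The log2 difference was 0.07 ± 0.11 (edgeR adjusted p = 0.657), with a 95% interval from -0.15 to 0.29. The interval for ZEB1 ran from -0.60 to -0.33, so the intervals of the pair did not overlap. Per kilobase, the ratio of ZEB1 to ZEB2 within a library was 23.7 and 24.0 in siNAT10 and 36.1 and 32.9 in siControl. The antisense rows ZEB2-AS1 and ZEB2_AS1_4 overlap ZEB2, and ZEB2-AS1, with at most 5 counts a library, was too low to be tested.

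The 2 Snail genes moved in opposite directions. SNAI2, which encodes SLUG (chromosome 8, 48917690 to 48921740, minus strand), had 5.87 and 8.06 CPM in siNAT10, against 9.74 and 10.9 CPM in siControl. The groups did not overlap, with siNAT10 replicate 2 nearer to siControl. SNAI2 fell by 0.58 on the log2 scale (SE 0.15, edgeR adjusted p = 4.15e-03), and the call was lost without siNAT10 replicate 1 (-0.35, adjusted p = 0.0985).

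SNAI1, which encodes SNAIL (chromosome 20, 49982999 to 49988886, plus strand), had 2.43 and 2.51 CPM in siNAT10, against 1.55 and 1.62 CPM in siControl. Each pair lay close together and the pairs were apart, but exact Clopper-Pearson 95% intervals of the counts overlapped. They ran from 1.87 to 3.02 CPM of the library total over siNAT10 and from 1.24 to 2.14 CPM over siControl. SNAI1 rose by 0.64 ± 0.24 on the log2 scale (edgeR adjusted p = 0.0411, 95% interval 0.13 to 1.14). These values rest on 84 and 74 counts in siNAT10 and 59 and 60 counts in siControl. The call did not hold when any 1 of the 4 libraries was left out (adjusted p from 0.0908 to 0.133), nor with library totals (0.089), no count filter (0.0633) or DESeq2 (0.238). Per kilobase, SNAI2 was 1.79 and 2.38 times SNAI1 in siNAT10 and 4.65 and 5.0 times in siControl.

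The Twist genes were not called. TWIST1 (chromosome 7, 19020991 to 19117672, minus strand) had 6.42 and 5.25 CPM in siNAT10, against 6.25 and 5.44 CPM in siControl, a log2 difference of 0.0012 ± 0.16 (edgeR adjusted p = 0.996). The siControl values lay inside the range of the siNAT10 values. TWIST2 (chromosome 2, 238848032 to 238910543, plus strand) had 2.72 and 3.86 CPM in siNAT10, against 3.31 and 5.04 CPM in siControl. Its groups overlapped, and the log2 difference was -0.35 ± 0.22 (edgeR adjusted p = 0.226), with a 95% interval from -0.82 to 0.12. Without siControl replicate 1 TWIST2 was called lower (-0.63, adjusted p = 0.0207).

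CDH2 was higher in siNAT10, the largest change in size among the 10 genes. CDH2, which encodes the N-cadherin of neural and mesenchymal adherens junctions (chromosome 18, 27950966 to 28177446, minus strand), had 45.3 and 53.3 CPM in siNAT10, against 22.5 and 25.1 CPM in siControl. Both siNAT10 libraries were above both siControl libraries, with means of 49.3 ± 5.71 CPM and 23.8 ± 1.80 CPM (SD, n = 2 each). The change was 2.07-fold, or 1.05 ± 0.09 on the log2 scale (SE, edgeR adjusted p = 3.46e-08), and it held in all 11 alternatives. The antisense row AC015933.2 shares 136 exon bases with CDH2 and was also called higher, at 39 and 37 counts in siNAT10 and 19 and 20 counts in siControl.

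CDH1 had few counts in every library and was not called. CDH1, which encodes the E-cadherin of epithelial adherens junctions (chromosome 16, 68737225 to 68835548, plus strand), had 36 and 23 counts in siNAT10, against 48 and 48 counts in siControl. These are 1.04 and 0.779 CPM in siNAT10 and 1.26 and 1.29 CPM in siControl, where a floor of 3 counts lies between 0.0825 and 0.0974 CPM of the library total. The CPM of the groups did not overlap. Exact Clopper-Pearson 95% intervals on the share of the library total ran from 0.473 to 1.39 CPM over the siNAT10 libraries. Those over the siControl libraries ran from 0.974 to 1.76 CPM, and these ranges overlap. The log2 difference was -0.48 ± 0.32 (edgeR adjusted p = 0.258), with a 95% interval from -1.16 to 0.20. A change of this estimated size was thus not resolved at this depth. In every library 72.0% to 73.5% of the counts between 1 and 50 were even; were both reads of a pair counted, these intervals would be too narrow. With all counts halved CDH1 was at -0.45 on the log2 scale and was still not called (edgeR adjusted p = 0.27). RP11-354M1.2, on the opposite strand, shares 347 of its exon bases and had 6 to 18 counts a library.

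The cadherin balance within a library can be given as the ratio of CDH2 to CDH1 per kilobase. It was 54.3 and 85.4 in siNAT10, against 22.3 and 24.2 in siControl. Both siNAT10 values were above both siControl values, but with 2 libraries against 2 an exact permutation test cannot give a p below 0.33, and the denominator is the low count of CDH1. N-cadherin mRNA was at least 22.3-fold above E-cadherin mRNA in every library, the controls included. The P-cadherin gene CDH3, another epithelial cadherin, was low as well, at 1.44 and 1.08 CPM in siNAT10 and 1.58 and 1.29 CPM in siControl, and was not called (-0.17 ± 0.30, edgeR adjusted p = 0.68).

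**Figure D3:**
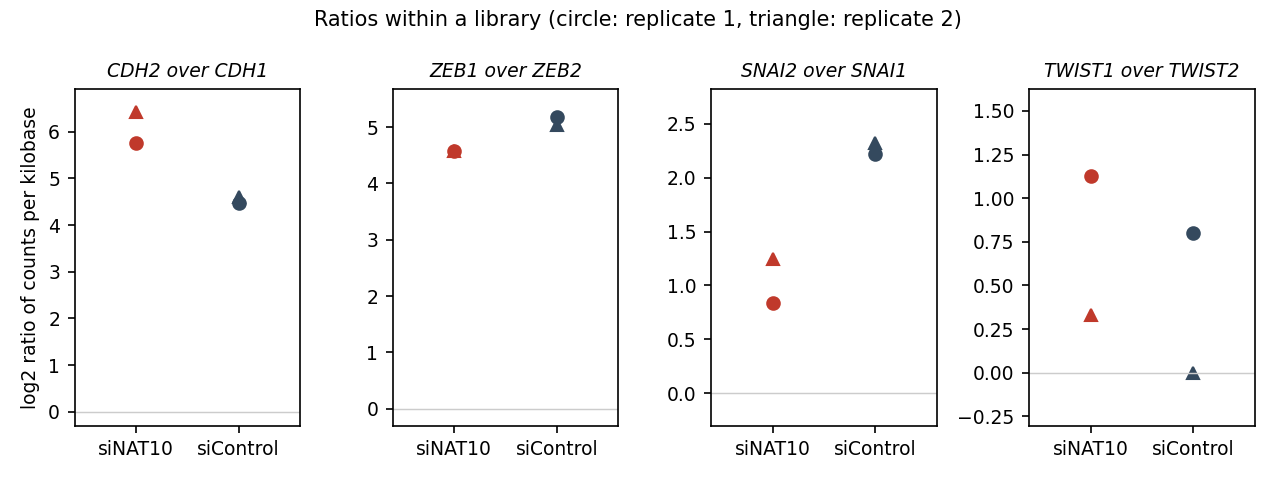
Log2 ratio of counts per kilobase between paired genes within each library, with siNAT10 left of siControl. CDH2 over CDH1 is higher in both siNAT10 libraries, ZEB1 over ZEB2 and SNAI2 over SNAI1 are lower in both, and TWIST1 over TWIST2 overlaps between the groups.

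FN1 was higher in siNAT10. FN1, which encodes the matrix glycoprotein fibronectin (chromosome 2, 215360440 to 215436172, minus strand), had 239 and 241 CPM in siNAT10, against 154 and 151 CPM in siControl. The pairs were tight and far apart, with means of 239.9 ± 1.66 CPM and 152 ± 2.27 CPM (SD, n = 2 each). The change was 1.57-fold, or 0.66 ± 0.06 on the log2 scale (SE, edgeR adjusted p = 1.23e-07), and it held in all 11 alternatives. No other row overlaps its exons.

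VIM, which encodes the intermediate filament vimentin (chromosome 10, 17228259 to 17237593, plus strand), had 296 and 309 CPM in siNAT10, against 283 and 285 CPM in siControl. The groups did not overlap but lay close, and the log2 fold change of 0.09 ± 0.06 was not called (edgeR adjusted p = 0.269). Its 95% interval ran from -0.041 to 0.22. Its exons overlap 2 antisense rows. RP11-124N14.3, with 619 of its 706 bases shared, had 173 and 185 CPM in siNAT10 and 167 and 168 CPM in siControl, and VIM-AS1, with 641 bases shared, had 78.0 and 76.4 CPM in siNAT10 and 74.5 and 76.9 CPM in siControl. Neither was called, and reads of the shared bases cannot be told apart between the strands.

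**Figure D4:**
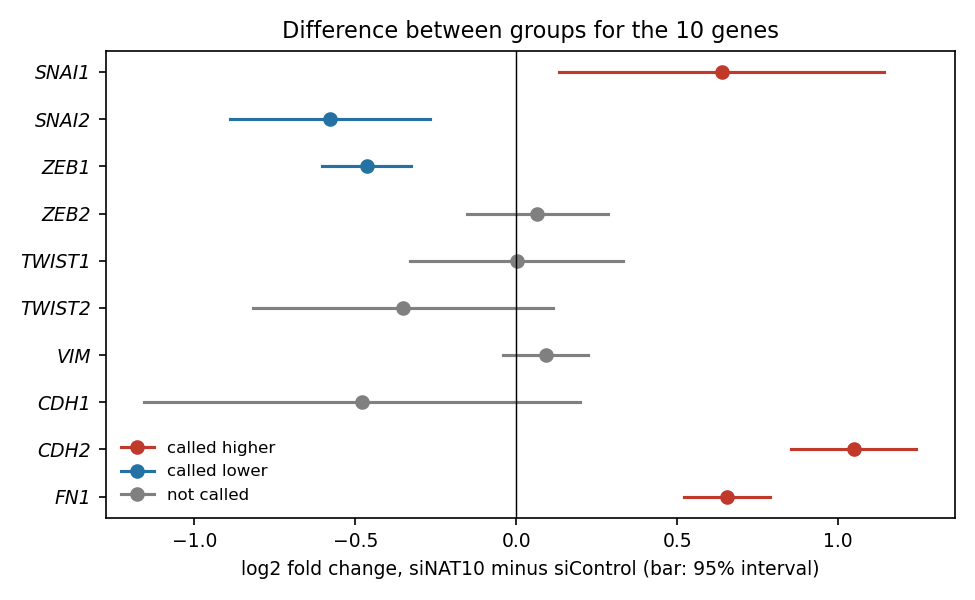
Log2 fold change of the 10 genes, siNAT10 minus siControl, with 95% intervals from the edgeR fit. The intervals of CDH2, FN1 and SNAI1 lie above 0, those of SNAI2 and ZEB1 lie below 0, and that of CDH1 is the widest.

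The promoters of the members that the RefSeq table holds were read for an E-box (CACCTG, or CAGGTG on the other strand) and for a cAMP response element (TGACGTCA, the same on both strands), the motifs not overlapping each other. Of all 35116 windows of 250 bases before a start, 17.5% held the E-box and 1.65% the response element. Of the 10 members, 6 were in the table. ZEB1 held an E-box in 2 of 7 windows. CDH2 (2 windows), FN1, VIM, ZEB2 and TWIST2 (1 window each) held no CACCTG or CAGGTG, and FN1 held the response element. Other forms of the E-box were not searched for. The FN1 stretch outside the deposited gene and the ZEB1 window with the first E-box are printed, as the genes called higher and lower with a match there, on the strand of the gene with motifs in capitals (RefSeq, GRCh38.p14).
FN1, chr2:215436173-215436318, minus strand: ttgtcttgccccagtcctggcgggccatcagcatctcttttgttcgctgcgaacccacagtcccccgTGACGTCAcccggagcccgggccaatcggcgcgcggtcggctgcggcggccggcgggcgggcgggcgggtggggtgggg
ZEB1, chr10:31318167-31318416, plus strand: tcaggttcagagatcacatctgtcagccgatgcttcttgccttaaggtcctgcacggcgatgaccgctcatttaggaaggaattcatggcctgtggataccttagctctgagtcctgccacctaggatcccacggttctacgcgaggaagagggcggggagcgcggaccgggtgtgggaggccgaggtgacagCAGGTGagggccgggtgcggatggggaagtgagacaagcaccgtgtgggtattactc
A match describes these letters and is no evidence of binding in these cells. The E-box was the planned motif. The response element was added outside that plan, so its match in FN1 is given as description only.

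Related genes were read from 10 lists. Counts are genes passing the edgeR test at an adjusted p under 0.05, and they stand beside 19.7% higher and 20.7% lower over all genes tested.

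Epithelial regulators that oppose EMT were called lower or not at all. Of 9 tested of 14 listed, 0 were higher, 5 were lower and 4 were not called, with a median log2 fold change of -0.45. The count of lower genes was 3 without siNAT10 replicate 1, without siNAT10 replicate 2, without siControl replicate 2 or with the 50-count filter, and 2 with DESeq2. KLF5, a Krüppel-like factor of basal epithelium, was at 51.8 ± 3.26 CPM in siNAT10 and 110.9 ± 6.46 CPM in siControl (SD, n = 2 each; -1.10 ± 0.07, edgeR adjusted p = 8.62e-10). KLF4, a factor of epithelial differentiation, was at 25.3 ± 0.727 CPM in siNAT10 and 34.6 ± 1.95 CPM in siControl (-0.45 ± 0.09, edgeR adjusted p = 3.63e-04). FOXA1, a pioneer factor of epithelia, was at 0.688 CPM in siNAT10 and 1.53 CPM in siControl, a call lost without siNAT10 replicate 2. EHF, an epithelial ETS factor, had 0 and 4 counts in siNAT10 and 13 and 26 in siControl, a call lost without siNAT10 replicate 1 or siControl replicate 2. GRHL3, a grainyhead factor of the epidermis, had 26 and 22 counts in siNAT10 and 48 and 64 in siControl (-0.99 ± 0.33, edgeR adjusted p = 0.0217). Its call was lost without either siNAT10 replicate or without siControl replicate 2. GRHL2, OVOL1 and ESRP1, central to epithelial identity, were too low to be tested, while ESRP2, an epithelial splicing factor, was at 30.7 and 28.0 CPM in siNAT10 and 25.8 and 25.1 CPM in siControl and was not called.

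Epithelial junction and surface genes went both ways. Of 25 tested of 29 listed, 5 were higher, 8 lower and 12 not called, with a median of -0.16. The tight junction gene CLDN7 was at 7.56 ± 0.96 CPM in siNAT10 and 37.5 ± 0.488 CPM in siControl (-2.31 ± 0.11, edgeR adjusted p = 3.91e-12), with RP1-4G17.5 and ELP5 overlapping it. OCLN, another tight junction gene, and EPCAM, an epithelial adhesion molecule, fell by 1.02 and 0.99 on the log2 scale. AP1M2, the epithelial sorting adaptor subunit, was at 28.0 ± 1.44 CPM in siNAT10 and 14.9 ± 0.946 CPM in siControl (0.91 ± 0.10, edgeR adjusted p = 4.08e-07).

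Mesenchymal and matrix genes also went both ways, with more calls higher. Of 29 tested of 35 listed, 12 were higher, 7 lower and 10 not called, with a median of 0.19. GREM1, a secreted BMP antagonist, was at 8.54 ± 0.474 CPM in siNAT10 and 0.984 ± 0.02 CPM in siControl (3.11 ± 0.19, edgeR adjusted p = 3.10e-10). WNT5A, a non-canonical Wnt ligand, was at 38.1 ± 3.02 CPM in siNAT10 and 17 ± 0.176 CPM in siControl (1.16 ± 0.09, edgeR adjusted p = 7.12e-09). The actin-binding genes CALD1, which encodes caldesmon, and TPM2, a tropomyosin, rose by 0.77 ± 0.06 and 0.70 ± 0.06 on the log2 scale. The 7 lower genes were COL5A1, COL1A1, LOXL2, NT5E, CD44, TNC and MMP9. COL5A1, a fibrillar collagen chain, was at 904 ± 48.5 CPM in siNAT10 and 1334 ± 114 CPM in siControl (-0.56 ± 0.07, edgeR adjusted p = 2.69e-06). LOXL2, a collagen crosslinking oxidase, and CD44, a hyaluronan receptor, fell by 0.45 and 0.30 on the log2 scale. The matrix protein gene TNC had 10 and 12 counts in siNAT10 and 55 and 54 in siControl, and the gelatinase gene MMP9 had 4 and 5 in siNAT10 and 21 and 39 in siControl.

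The other EMT-inducing transcription factors held 1 gene called higher and 3 lower of 12 tested of 15 listed, with a median of -0.25. The count of lower genes was 5 with library totals, and 1 with DESeq2, without either siNAT10 replicate or without siControl replicate 2, where 2 were higher. ETS1, which activates matrix-degrading genes, was at 37.1 ± 0.041 CPM in siNAT10 and 23.8 ± 1.47 CPM in siControl (0.64 ± 0.09, edgeR adjusted p = 7.43e-06). SOX9 was at 3.58 ± 0.204 CPM in siNAT10 and 5.89 ± 0.289 CPM in siControl (-0.72 ± 0.17, edgeR adjusted p = 1.79e-03). The calls of FOXC2 (-0.33, edgeR adjusted p = 0.0357), which FOXC2-AS1 overlaps, and of SNAI3 (-1.49, edgeR adjusted p = 0.0459), which SNAI3-AS1 overlaps, were lost with DESeq2. SNAI3 had 6 and 6 counts in siNAT10 and 23 and 17 in siControl. The FOXC2 call was also lost without either siNAT10 replicate or without siControl replicate 2. That of SNAI3 was also lost without any 1 library, with no count filter and with the replicate block.

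Among the other cadherins, 1 was higher and 3 lower of 8 tested of 19 listed, with a median of -0.20. The list was wider than the classical and type II cadherins. Of the lower genes, CDH17 and CDH13 belong to neither class, and CDH4 is a classical cadherin. The count of lower genes was 1 with DESeq2, without siNAT10 replicate 1, where 2 were higher, or without siControl replicate 1. CDH12, a brain-type cadherin, was at 12.2 ± 2.27 CPM in siNAT10 and 5.27 ± 0.095 CPM in siControl (1.2 ± 0.15, edgeR adjusted p = 2.07e-06). CDH17, the liver-intestine cadherin, had 2 and 2 counts in siNAT10 and 67 and 46 counts in siControl. CDH4 (-0.85) lost its call without siNAT10 replicate 1 or siControl replicate 1. CDH13 (-0.23, RP11-483P21.2 overlapping) lost its call without either siNAT10 replicate or without siControl replicate 1. It also lost the call with DESeq2 size factors or the replicate block.

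Of the cadherin partners and genes of E-cadherin turnover, 4 were higher and 3 lower of 11 tested of 13 listed, with a median of 0.06. The count of higher genes was 1 without siNAT10 replicate 2 and 1 with library totals. ADAM10, the protease that sheds cadherin ectodomains, was at 85.0 ± 0.063 CPM in siNAT10 and 61.1 ± 0.738 CPM in siControl (0.48 ± 0.07, edgeR adjusted p = 1.55e-05, RP11-50C13.1 overlapping). MLLT4, now AFDN, the junction adaptor afadin, and AJUBA, a LIM protein of junctions, which RP11-298I3.5 overlaps, fell by 0.75 and 0.37 on the log2 scale.

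For fibronectin, 2 receptor or assembly genes were higher and 2 lower of 9 tested of 12 listed, with a median of 0.04. With library totals 4 were lower, and 1 was higher without siControl replicate 2 or with DESeq2. ITGA5, the alpha chain of the classical fibronectin receptor, was at 62.6 ± 4.89 CPM in siNAT10 and 112.7 ± 2.01 CPM in siControl (-0.85 ± 0.07, edgeR adjusted p = 2.11e-08, RP11-753H16.5 overlapping), opposite in direction to FN1. Its partner chain ITGB1 was at 922 and 864 CPM in siNAT10 and 832 and 856 CPM in siControl and was not called. The syndecan gene SDC4 fell by 0.39 and the transglutaminase gene TGM2, which RPRD1B overlaps, rose by 0.32 on the log2 scale. ITGB3, a chain of another fibronectin receptor, was called higher (1.06 ± 0.31, edgeR adjusted p = 9.27e-03), a call lost without siControl replicate 2, and RP11-290H9.2 covers 51.6% of its exon bases.

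Of 17 corepressors of SNAIL and ZEB proteins, all tested, 9 were higher, 2 lower and 6 not called, with a median of 0.16. The count of lower genes was 1 with DESeq2 or without siNAT10 replicate 1. SIN3A, a scaffold of histone deacetylase complexes, was at 208 ± 0.057 CPM in siNAT10 and 129 ± 1.92 CPM in siControl (0.69 ± 0.06, edgeR adjusted p = 6.64e-08, RP11-817O13.8 overlapping). KDM1A, the histone demethylase LSD1 that SNAIL recruits, was at 333 ± 16.4 CPM in siNAT10 and 205 ± 15.6 CPM in siControl (0.70 ± 0.07, edgeR adjusted p = 1.60e-07). The deacetylase gene HDAC2 (0.56, RP3-399L15.3 overlapping) and the chromatin remodeller gene SMARCA4 (0.53, uc_338 overlapping) were higher too.

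Of 16 genes that control SNAIL and TWIST protein turnover, all tested, 5 were higher, 1 lower and 10 not called, with a median of 0.06. With library totals 4 were lower. SKP2, an F-box protein, was at 63.6 ± 3.12 CPM in siNAT10 and 42.9 ± 1.47 CPM in siControl (0.57 ± 0.07, edgeR adjusted p = 5.56e-06). USP27X, a deubiquitinase that stabilises SNAIL, was at 2.84 ± 0.099 CPM in siNAT10 and 5.93 ± 0.307 CPM in siControl (-1.06 ± 0.17, edgeR adjusted p = 6.60e-05). PPP2R1A, a phosphatase scaffold subunit with CTD-2525I3.3 overlapping, and the kinase gene LATS2 rose by 0.67 and 0.57. GSK3B, a kinase that marks SNAIL for degradation, was at 53.9 and 56.3 CPM in siNAT10 and 61.5 and 58.1 CPM in siControl, and was not called (-0.12 ± 0.07, edgeR adjusted p = 0.204).

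Of 9 vimentin network partners, all tested, 2 were higher, 3 lower and 4 not called, with a median of -0.13. The count of higher genes was 1 with library totals, DESeq2, no filter or the replicate block, and without siControl replicate 1 or either siNAT10 replicate. SYNM, which encodes synemin, an intermediate filament protein that assembles with vimentin, was at 370 ± 20.3 CPM in siNAT10 and 539 ± 3.27 CPM in siControl (-0.54 ± 0.06, edgeR adjusted p = 1.51e-06), with RP11-6O2.4 over 25.9% of its exon bases. The desmin gene DES (-1.07) and the nestin gene NES (-0.25) were lower and the lamin gene LMNA (0.30) was higher. The call of NES was lost without siNAT10 replicate 2. With DESeq2 the calls of FOXA1, EHF, GRHL3, CDH4, CDH13 and ITGB3 were lost as well.

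**Figure D5:**
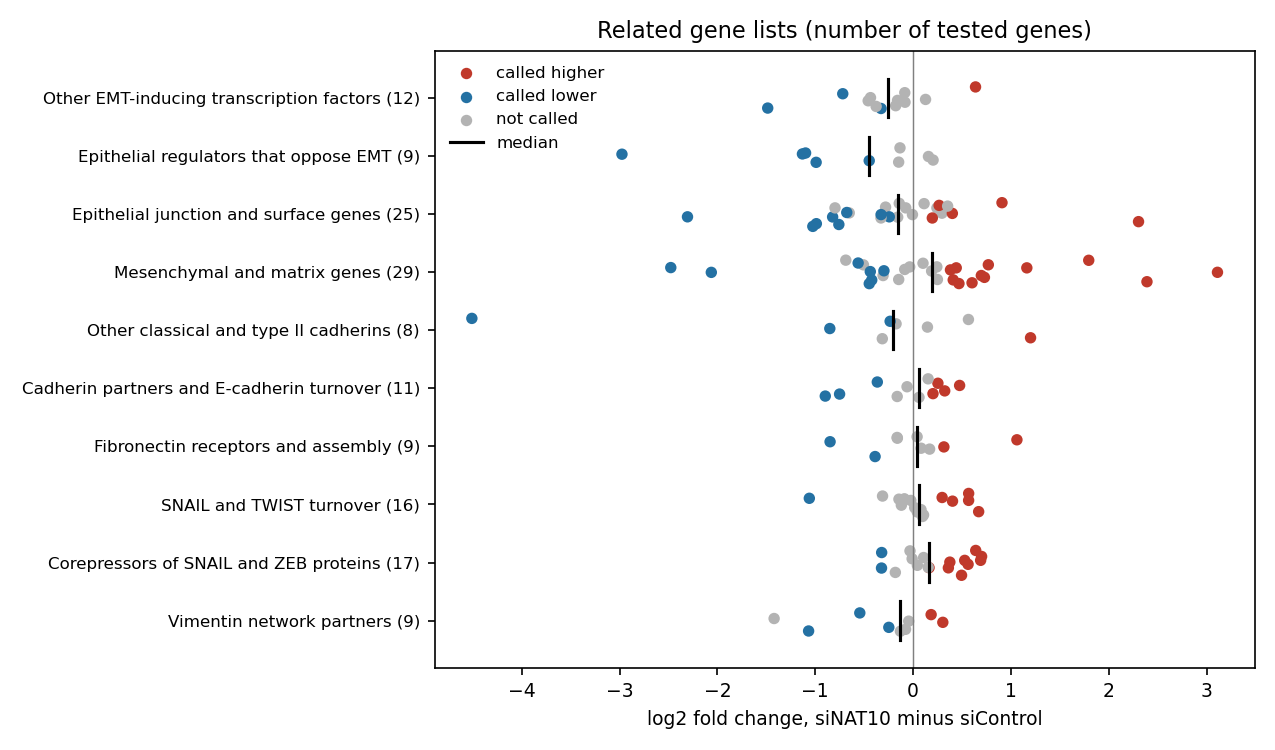
Log2 fold change of every tested gene in the 10 related lists, siNAT10 minus siControl, with the number tested in brackets and a black bar at the median. No epithelial regulator is called higher and 5 are called lower, while each other list holds calls in both directions.

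The genes most like CDH1 and VIM were sought over the 4 libraries by the Euclidean distance of log2 CPM centred on each gene's mean, among tested genes with a mean of at least 10 CPM. For VIM they were GPATCH1, LINC01270 and H3F3B, at distances from 0.0125 to 0.0152 among 9324 genes. For CDH1 they were HOXC6, LATS1 and PTGES, at distances from 0.0792 to 0.10 among 9325 genes, with the profile of CDH1 resting on 23 to 48 counts. With 4 libraries such likeness describes little beyond the group difference.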

How the data were processed

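RNA was extracted with TRIzol and sequenced as paired-end libraries made with a KC Digital mRNA kit, per the labels' protocols. The authors deposited whole-number counts per gene with gene coordinates and lengths; the submitters' processing notes name fastp 0.23.4, STAR 2.5.3a, featureCounts and GRCh38. For the annotation release, the strand setting and molecular identifiers, the sources used here give nothing. Library totals ran from 30794757 to 36341785 counts.

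Groups follow the labels, and the 10 members and the lists were chosen with earlier results of these data known. Counts were tested with edgeR 4.0.16 (R 4.3.3) by quasi-likelihood after TMM scaling and filterByExpr, and p-values were adjusted by Benjamini-Hochberg over all 20098 genes tested (threshold 0.05). CPM used TMM-scaled library sizes, and TPM used the deposited lengths. Floors are 3 counts a library, and intervals and floors cover counting error only. Replicates of a group differed by more than sampling noise (chi-square per degree of freedom 4.77 in siNAT10 and 7.94 in siControl). All members were named, with NAT10, rows overlapping a member's exons and, from each list, the 4 called genes with the smallest adjusted p, of which 1 is not reported here; other list genes named beside them (ESRP2, GRHL2, OVOL1, ESRP1, ITGB1, GSK3B, CDH3, GRHL3 and the 7 lower mesenchymal genes) were chosen after their values were seen. The alternatives were library totals, DESeq2 size factors, DESeq2 1.42.0, no filter, a 50-count filter, all counts halved, leaving out each library, and a replicate block.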

Additional observations from a re-analysis of the deposited data

How the results depend on the processing

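Values are log2 fold changes, siNAT10 minus siControl. ZEB1, CDH2 and FN1 kept their direction and call under all 11 alternatives. The whole-table counts with DESeq2 were 2840 higher and 2771 lower, against 3951 and 4169. SNAI1 lost its call with library totals (0.53), DESeq2 (0.64), no filter (0.63) and each library left out (0.61 to 0.67). Leaving out 1 library gave -0.81 to -0.35 for SNAI2, -0.63 to -0.018 for TWIST2, -0.012 to 0.15 for ZEB2 and -0.15 to 0.14 for TWIST1. For CDH1 it gave -0.70 to -0.29. ZEB2 and VIM turned to -0.045 and -0.021 with library totals. TWIST1, at 0.0012, turned to -0.11 with library totals, -0.0046 with no filter and -0.00034 with the 50-count filter. In CPM in place of TPM the log2 ratios were 0.64 for SNAI1, -0.47 for ZEB1, 0.064 for ZEB2, 0.091 for VIM, 1.05 for CDH2 and 0.66 for FN1, against 0.45, -0.66, -0.13, -0.10, 0.86 and 0.46 in TPM. The mean log2 ratio of CDH2 to CDH1 in siControl was 4.22 without length scaling, against 4.54. By definition the ratio differs by the deposited gene lengths alone, and TPM, unlike CPM here, carries no TMM factor. Of 40 list genes chosen by rule, 32 kept their call in every alternative that tested them and none reversed.

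Replicate numbers are shared between the groups, but the differences between replicates 1 and 2 correlated at -0.019 over 20098 genes, so the numbers were not taken as a pairing. With a replicate block 3997 genes were higher and 4257 lower, and TWIST1 was at -0.0045.

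With all counts halved no member changed its call or direction, and 3932 genes were higher and 4098 lower. The change of CDH1, estimated at -0.48 from 23 to 48 counts a library, was not resolved at this depth.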
